A study of Mus musculus with 10 samples.

Results

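The 75 genes described here are the autosomal protein-coding genes whose symbols mark them as proteins of the cytosolic ribosome. A gene was taken when its symbol began with Rpl or Rps followed by a digit or by the letter p or a, and when it was neither an Rps6k kinase nor a numbered pseudogene. They are 75 of the 17386 autosomal genes listed with at least 1 peak for either antibody in cultured mouse muscle stem cells (MuSCs). Of these, 74 were listed with a Pol II S2P peak, 20 with an H4K20me1 peak and 19 with both. H4K20me1 is histone H4 monomethylated at lysine 20, and Pol II S2P is the form of RNA polymerase II that carries phosphate on serine 2 of the repeats in its tail. The rule also takes in the paralogs Rpl22l1, Rpl7l1 and Rps27l. By symbol alone it takes in Rps23rg1, which was not on the preset list of paralogs, and Rps19bp1, whose product binds RPS19 and is no ribosomal subunit.

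Ribosomal proteins assemble with ribosomal RNA into a large 60S and a small 40S subunit, and growing cells transcribe their genes at high and coordinated rates. The mRNAs begin with a C followed by a run of pyrimidines, the terminal oligopyrimidine (TOP) tract, through which their translation follows mTOR signalling. H4K20me1 is set by KMT5A, and KMT5B and KMT5C convert it to the di- and trimethylated forms. Serine 2 phosphorylation marks elongating polymerase and typically accumulates towards and beyond the 3′ end of genes.

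Both marks were mapped by CUT&RUN (antibody-tethered nuclease cleavage, here on MuSCs of 2 genotypes). Ctrl cells were Pax7CreERT/Suv4-20h1WT, with intact Kmt5b (also called Suv4-20h1), and sKO cells were Pax7CreERT/Suv4-20h1KO, in which tamoxifen-activated Cre driven from Pax7 deletes floxed Kmt5b. Both genotypes carried the Cre allele, and both were expanded in culture in serum with LIF and bFGF. Tamoxifen had been given to young adult mice of a C57BL/6 background, and the ages of individual animals are not stated for these libraries. The methods call the 2 libraries per genotype and antibody biological replicates. Deletion acts only in cells that expressed Pax7, and how complete it was in these cultures cannot be read from the scores. Over the whole targeted gene, Kmt5b, the H4K20me1 score was 1332 and 1740 in Ctrl and 1934 and 2196 in sKO. Its Pol II S2P score was 24 and 62 in Ctrl and 48 and 22 in sKO, too low to be tested. Among fixed marker genes, 8 of 10 muscle markers had a listed Pol II S2P peak, with summed scores of 8711 to 12491 per library, and Myf5 and Cdh15 had none. Of 6 immune markers 3 had such a peak, with summed scores of 922 to 1452, and of 6 endothelial markers 2, with 133 to 256. Of 6 fibro-adipogenic markers 3 had one, with summed scores of 1223 in Ctrl replicate 1 and 123 to 223 in the other 3 libraries. The part of other cells in the results was not tested.

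Values are spike-in normalised scores of peaks, summed over the peaks listed with each gene and not divided by length unless stated. One H4K20me1 library summed to 15218720 to 35046570 over all its peaks and one Pol II S2P library to 3257665 to 4885638. The methods state read totals for each library, but the scores are scaled coverage and not read counts, so no counting interval is given. A gene counts as called when the limma test on log2(score + 1) gave a Benjamini-Hochberg adjusted p below 0.1 and a log2 fold change past 0.5, among genes with a mean score above 50. Ribosomal protein genes have many processed copies in the genome: 53 of the 75 have pseudogenes named after them, 275 in all. Only unique alignments were kept, so parts of these genes that a copy matches exactly are undercounted, and their levels are uncertain.

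The RefSeq start sites of the genes with the strongest Pol II S2P peak at the start are shown first. These are the 8 members with the highest Ctrl score in a peak centred within 500 bases of the annotated start that also have exactly 1 start in the RefSeq promoter table (GRCm38.p6). Each sequence runs 5′ to 3′ along the gene over 30 bases, 20 before the RefSeq start and 10 from it. Capitals mark the longest run of C and T.
Rps9: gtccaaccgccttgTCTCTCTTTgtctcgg
Rplp2: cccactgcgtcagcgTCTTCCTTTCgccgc
Rpl41: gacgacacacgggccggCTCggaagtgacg
Rps15a: gcccaCTCTCTTTCTgccatcttccctcgc
Rps15: gCCCTCCCggcagagctcgcgataactgcg
Rps13: cgcgcgagagcaaacgTCggtgagtggcgt
Rps25: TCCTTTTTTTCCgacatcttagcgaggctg
Rpl15: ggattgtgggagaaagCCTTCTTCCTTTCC

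On the plus strand lie Rps9 (chr7:3704021-3704050), Rplp2 (chr7:141447631-141447660), Rps15 (chr10:80292411-80292440) and Rps25 (chr9:44407694-44407723). On the minus strand lie Rpl41 (chr10:128549159-128549188), Rps15a (chr7:118116138-118116167), Rps13 (chr7:116334181-116334210) and Rpl15 (chr14:18270977-18271006). In 5 of the 8 the run was 8 bases or longer. It crossed the RefSeq start in Rps9, Rplp2 and Rpl15, where in Rpl15 it spanned 14 bases. In Rps15a and Rps25 the run lay wholly before that start. In Rpl41 and Rps13 it was only 3 and 2 bases long. RefSeq starts need not be the main starts used in these cells. They can also differ from the annotated gene starts around which the polymerase data below are arranged. In Rps25 the bases shown begin at 44407694, and the annotated gene begins at 44407139. The promoter table held 55 of the 75 genes. A run of at least 8 C or T on the gene's strand, from 15 bases before to 15 after the start, was found in 24 of the 55 (43.6%) and in 14.1% of 15633 other autosomal protein-coding genes. The letters CTTTC in the same window and strand, which such a run can contain, were found in 14 (25.5%) against 4.35%. CGGAAG, the core letters bound by ETS family factors, was found on either strand of the 300-base promoter in 37 (67.3%) against 24.4%. TATAAA, read on the gene's strand of that promoter, was found in 4 (7.27%) against 9.44%.

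Pol II S2P peaks sat over nearly all ribosomal protein genes: at the start, in short stretches inside the gene and in a long stretch beyond the end. By the same symbol rule, the GENCODE M21 annotation holds 82 autosomal members, and 79 of them overlapped a Pol II S2P peak. The annotated start lay in a peak in 59 of 82 (72.0%), close to the 69.6% of 1078 other protein-coding genes of at most 6 kb with a Pol II S2P peak, and above the 47.4% of 78 mitochondrial ribosomal protein genes. The mitochondrial set was not limited to genes with a peak: 52 of the 78 were listed with one, against 74 of the 82 members. Towards the gene end the groups parted. At the annotated end itself 43.9% of members lay in a peak, against 18.9% of the other short genes and 10.3% of the mitochondrial ribosomal protein genes. At 1 kb past the annotated end, 69 of 82 members (84.1%) lay in a Pol II S2P peak, against 21.6% of the other short genes and 6.41% of the mitochondrial ribosomal protein genes. At 5 kb past the end the shares were 36.6%, 13.4% and 11.5%, and at 10 kb they were 7.32%, 6.59% and 6.41%. The comparison set of short genes was chosen after values had been seen, and the differences between sets were not tested.

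**Figure D1:**
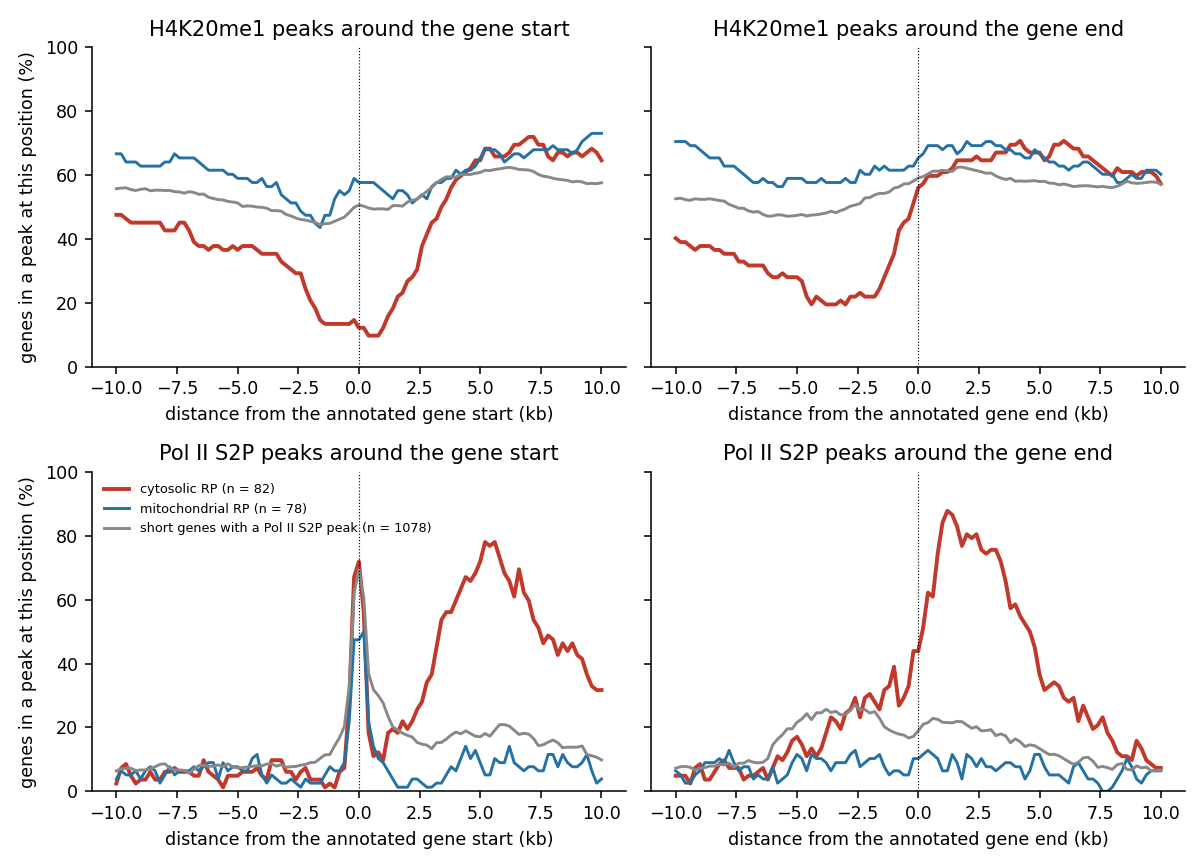
Share of genes (y, percent) that lie in a listed peak at each position (x, kb from the annotated gene start, left, or gene end, right), for H4K20me1 (top) and Pol II S2P (bottom), in the 82 annotated cytosolic ribosomal protein genes (RP), 78 mitochondrial RP genes and 1078 other genes of at most 6 kb with a Pol II S2P peak. In Pol II S2P the cytosolic RP genes reach 84.1% at 1 kb past the end, and in H4K20me1 they fall to 12.2% at the start.

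The peaks beyond the end were also long. A Pol II S2P peak of at least 1500 bases overlapped the first 3 kb past the end in 63 of 82 members (76.8%). The same held for 12.4% of the other short genes, 2 of 78 mitochondrial ribosomal protein genes, 13 of 52 initiation factor genes (25%) and 7 of 29 ribosome biogenesis genes (24.1%). In the fixed list of elongation factors and other genes with TOP mRNAs, it held for 12 of 14 (85.7%). Of all 50698 autosomal Pol II S2P peaks, 2.73% were at least 1500 bases long. The 3-kb windows past the members held 144 different peaks with a median length of 1537.5 bases, against 375 bases for all autosomal peaks. Where a window held a peak, the Ctrl score in it had a median of 690.5 for members and 138 for the other short genes.

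Rpl3, whose protein lies near the catalytic centre of the 60S subunit (mm10, chromosome 15, 80077791 to 80091868, minus strand), had the highest score past its end. Its peak of 7523 bases scored 2605 and 2884 in Ctrl and 3422 and 2125 in sKO. Rps12, a 40S subunit gene (chromosome 10, 23785183 to 23787275, minus strand), followed with a peak of 7228 bases, more than its own annotated length of 2093 bases. That peak scored 2077 and 2377 in Ctrl and 3078 and 1873 in sKO. The longest such peak, of 9260 bases, lay past Rpl27a and scored 1805 and 2109 in Ctrl and 2655 and 1789 in sKO. In all 3 genes sKO replicate 1 was the highest library and sKO replicate 2 was below Ctrl replicate 2, so the genotypes overlapped. No peak lay in the window past Rpl11, Rps27rt, Rpl36al, Rpl10l or Rpl39l. The annotation extends Rpl11 over 25164 bases, so its annotated end may not be that of the main transcript.

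**Figure D2:**
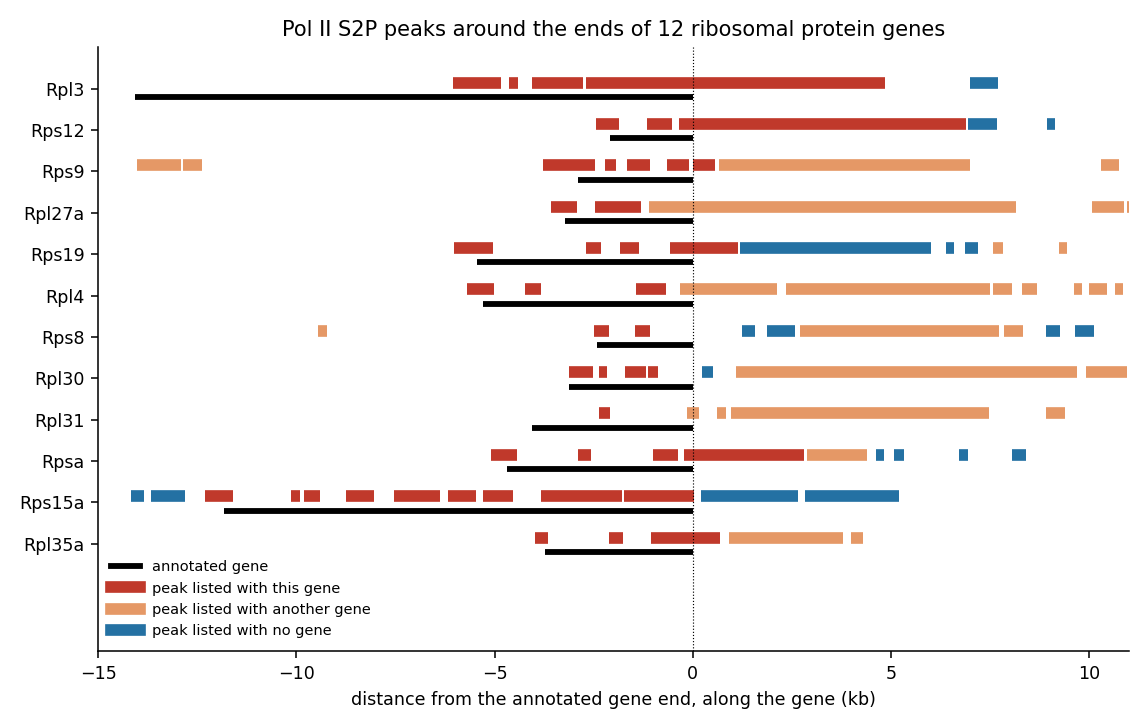
Pol II S2P peaks (bars) around the annotated ends of the 12 ribosomal protein genes with the highest Ctrl score within 3 kb past the end, drawn along each gene (x, kb from the annotated end); black lines are the annotated genes and colours say which gene, if any, the tables list the peak with. The peak past Rpl3 is 7523 bases long and the one past Rpl27a, listed with another gene, 9260 bases.

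Most of this signal was not listed under the ribosomal protein genes. Of the 144 peaks past the ends, 22 were listed with a member, 53 with no gene and 69 with another gene. Whether a peak listed with another gene belongs to that gene or to the member was not tested. Even among listed peaks alone, those centred past the end held 45.2% ± 0.157 (SD, n = 2) of the members' score in Ctrl and 45.1% ± 1.95 (SD, n = 2) in sKO. This share rests on few genes: 16 of the 74 members had such a peak, and Rpl3 and Rps12 alone held 42.1% of its Ctrl score. Without these 2 genes, left out after values were seen, the share was 33.4% ± 0.0752 (SD, n = 2) in Ctrl and 32.9% ± 0.947 (SD, n = 2) in sKO. In other tested protein-coding genes of at most 6 kb they held 12.8% ± 0.263 (SD, n = 2) in Ctrl. Peaks centred within 500 bases of the start held 24.9% ± 1.06 (SD, n = 2) of the members' score in Ctrl and 23.9% ± 1.66 (SD, n = 2) in sKO, against 45.9% ± 1.02 (SD, n = 2) of the score of the other short genes in Ctrl. Most of the remainder lay in 106 peaks centred inside 52 of the genes, 27.6% ± 1.10 (SD, n = 2) in Ctrl and 28.6% ± 0.0171 (SD, n = 2) in sKO. The Ctrl and sKO shares at the start and past the end differed by no more than the spread of their pairs, and 2 libraries against 2 cannot give an exact permutation p below 0.333.

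Measured per kb of gene, the tested ribosomal protein genes had higher Pol II S2P scores than other tested genes. The median log2 score per kb of the 66 tested members exceeded that of 7636 other tested protein-coding genes by 2.88 ± 0.217 (SD, n = 2) in Ctrl and by 2.80 ± 0.0413 (SD, n = 2) in sKO. In Ctrl 36 of the 66 (54.5%) were among the top 10% of tested protein-coding genes and 65 were above their median. A mean score above 50 was needed to be tested, so short genes entered only with a high score per kb. The 82 annotated members have a median length of 3.4 kb, against 27.1 kb for all coding genes with a Pol II S2P peak. The limit and gene length therefore partly set these counts. The 8 members below the limit are left out, and other short genes were not compared at this level. The excess of the median depends on the length used: per kb of listed peaks it was 0.18, and without division by length the medians differed by -0.01. The listed peaks of all 74 genes held 0.652% to 0.771% of the autosomal Pol II S2P score per library. Together with the peaks past their ends, the share was 1.91% to 2.20%.

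The order of levels per kb of gene ran from Rps12 at 1153 in the Ctrl mean to Rpl7l1 at 5.76 among tested genes. These levels count all listed peaks, also those past the end, but divide by the length of the gene alone. Among the next highest were Rpl12 (320.0), a 60S gene, and Rpsa (271.4), the 40S protein also known as the laminin receptor precursor. Peaks centred past the end held 92.3% of the Ctrl score of Rps12, 81.2% of that of Rpl12 and 81.9% of that of Rpsa. Their rank thus depends on which peaks past the end are listed with them. Rpl12 summed to 1152 and 1272 in Ctrl and 1545 and 973 in sKO, and Rpsa to 1283 and 1258 in Ctrl and 1293 and 1029 in sKO. In both genes the genotypes overlapped. At the low end, after Rpl7l1, stood Rpl18 (9.20), Rpl22 (9.78) and Rps28 (12.01). Too low to be tested were 8 members, among them Rpl31, Rplp1 and Rps24. A low listed level need not mean little polymerase nearby: the 3 kb past Rpl31 scored 1255 and 1542 in Ctrl and 2150 and 1443 in sKO, and its listed peak 34 and 29 in Ctrl and 43 and 15 in sKO.

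**Figure D3:**
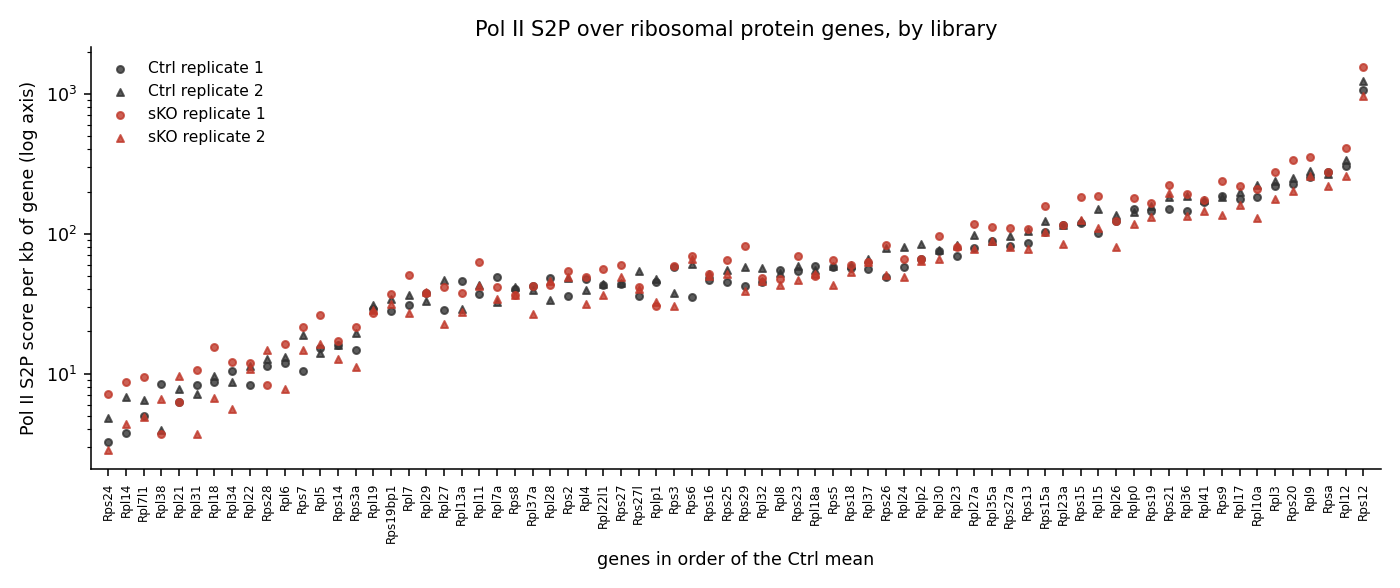
Pol II S2P score per kb of gene (y, log axis) in each library for 72 of the ribosomal protein genes listed with a peak (x, in order of the Ctrl mean); points are single libraries, 2 per genotype. Levels run over more than 2 orders of magnitude up to Rps12, and Ctrl and sKO libraries intermingle. Scores include listed peaks past the gene end, while the length is that of the gene alone.

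No change in Pol II S2P on these genes was called after Kmt5b deletion. None of the 66 tested members was called, and the background share was 0% in either direction among 8531 tested genes (limma, adjusted p of 1 for every member). At an unadjusted p below 0.05 there was also no member, against 100 genes overall. With libraries scaled to equal totals, limma called 1 member, Rpl26, lower in sKO by a log2 change of -0.53, where 0.855% of tested genes were called lower and 1.26% higher. After quantile normalisation no member was called (1.31% of all tested genes higher, 0.34% lower). The median log2 fold change of the members was 0.01, beside 0.09 over all tested genes, with 35 above and 31 below 0. The pairs of libraries did not overlap in 6 members with sKO higher and in 7 with sKO lower, where 9.41% and 4.52% of all tested genes did so. Standard errors of single genes were 0.41 to 0.53, so only large changes could have been called. The libraries themselves differed by more than the genotypes: the median over all tested genes, relative to the Ctrl mean, was -0.20 and 0.20 in Ctrl and 0.32 and -0.13 in sKO.

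Rps6, the 40S protein phosphorylated by S6 kinases (chromosome 4, 86854660 to 86857412, minus strand), had the highest log2 fold change, 0.54 (SE 0.41). It scored 97 and 168 in Ctrl and 190 and 182 in sKO. Rpl5, which with Rpl11 carries 5S ribosomal RNA and binds MDM2, scored 130 and 120 in Ctrl and 224 and 138 in sKO. Its partner Rpl11 scored 928 and 1076 in Ctrl and 1577 and 1059 in sKO. Both sKO libraries were above both Ctrl libraries in Rps6 and Rpl5, and the genotypes overlapped in Rpl11. At the other end, Rpl26 scored 670 and 738 in Ctrl against 667 and 434 in sKO, with a log2 fold change of -0.39 (SE 0.43) and both sKO libraries below both Ctrl libraries. Rpl10a (-0.30), Rpl37a (-0.29) and Rpl24 (-0.25) had the next lowest values and overlapping genotypes. Other members with known roles stayed near 0. Rplp0, the stalk protein widely used as a reference transcript, scored 642 and 610 in Ctrl and 768 and 500 in sKO. Rps19, a gene mutated in Diamond-Blackfan anaemia, scored 788 and 854 in Ctrl and 905 and 716 in sKO. Rps3, at the mRNA entry of the 40S subunit, scored 340 and 221 in Ctrl and 346 and 177 in sKO. Rps27a, which is made as a fusion with ubiquitin, scored 185 and 219 in Ctrl and 250 and 181 in sKO. In each of these 4 genes the genotypes overlapped.

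By subunit, 33 tested 60S genes had a median log2 fold change of -0.04 and 27 tested 40S genes one of 0.04. The stalk genes Rplp0 and Rplp2 had -0.01 and -0.21, and the third, Rplp1, was too low to be tested, with 57 and 60 in Ctrl and 38 and 41 in sKO. Among the fixed comparison lists none of 37 mitochondrial ribosomal protein genes, 30 initiation factors, 11 TOP genes and 16 biogenesis genes was called, and their medians were 0.07, 0.11, -0.05 and -0.05. The score within 3 kb past the end gave the same picture for the 77 annotated members with a peak there. Its log2 ratio of sKO to Ctrl means had a median of 0.10 (quartiles 0.01 and 0.23). Both sKO libraries were above both Ctrl libraries in 5 members (Rps3, Rpl5, Rpl36, Rpl34 and Rpl18) and below them in 1, Rps16. For summed scores of all tested genes these shares were 9.41% and 4.52%, above those of the windows, and the windows of other genes were not compared.

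At the start, H4K20me1 was arranged the other way around the same genes. Peaks of this mark are broad, with a median of 8400 bases on autosomes, yet they left out the starts of most ribosomal protein genes. The annotated start lay in an H4K20me1 peak in 10 of 82 members (12.2%), against 50.6% of the 1078 other short genes with a Pol II S2P peak, 57.7% of the mitochondrial ribosomal protein genes and 42.9% of all autosomal protein-coding genes. Initiation factor genes had 51.9% and TOP genes 4 of 14 (28.6%). Away from the start the shares approached each other: at 5 kb downstream of the start 64.6% of members and 60.9% of the other short genes lay in a peak. At 2 kb past the gene end the shares were 64.6% and 62.2%. Upstream the members stayed lower, with 36.6% against 51.3% at 5 kb. The median share of gene length covered was 8.14% in the members, against 59.3% for the other short genes and 72.7% for the mitochondrial ribosomal protein genes. The peaks form 1 union set for the 4 libraries of the antibody, so these shares cannot be split by genotype.

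The 10 members whose start lay in a peak were Rpl22, Rplp0, Rps9, Rps15a, Rpl29, Rps27rt, Rpsa, Rps15, Rps28 and Rpl17. In 6 of them the peak is listed with another gene, and its length reached 68200 bases at Rpl29 and 60600 bases at Rps15. Of the 82 annotated members, 48 (58.5%) were overlapped by an H4K20me1 peak and 19 were listed with one. In 29 the only overlapping peaks were listed with another gene or with none. The scores below therefore describe a minority of the genes.

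The 20 listed members had 24 H4K20me1 peaks, from 1 to 3 each. In 16 peaks, each of a different gene, less than 50% of the length lay inside the gene, and 17 peaks covered the annotated gene end. In 20 of the 24 peaks at least 1 Pol II S2P peak overlapped the H4K20me1 peak, and the same share was not taken for other H4K20me1 peaks.

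On the deposited scale H4K20me1 rose in sKO over most listed members, but by less than over other genes. Of the 20 genes, 12 were called higher in sKO and none lower by limma (60%), where 92.3% of the 13750 tested genes were called higher and 0% lower. Without sKO replicate 2 only 5 were called, and without sKO replicate 1 or Ctrl replicate 1 the count was 9. In these fits a single library was taken to vary like those of the other genotype. The median log2 fold change of the members was 0.63, beside 1.11 over all tested genes, and 14 of 20 lay below that median. For medians per library, each gene was taken relative to its own Ctrl mean, so the Ctrl values mirror each other and give no level. The median of the members relative to that of all tested genes was 0.02 and -0.02 in Ctrl. In sKO it was -0.47 and -0.44, and this gap was outside the spread within each pair (pooled SD 0.03). That spread is between libraries over the same genes. It does not measure the spread among members, whose log2 fold changes had quartiles of 0.21 and 1.16. The 33 mitochondrial ribosomal protein genes were all called higher, with a median of 1.33. Initiation factors (23 of 35 called, median 0.59), TOP genes (4 of 7, 0.58) and biogenesis genes (10 of 14, 0.83) also lay below the median of all tested genes. With libraries scaled to equal totals the median of all genes fell to 0.13 and that of the members to -0.35. On that scale 2 members were called higher (20.8% of all tested genes) and 8 lower (5.69%). After quantile normalisation 1 was called higher (10.3%) and 10 lower (11.1%).

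**Figure D4:**
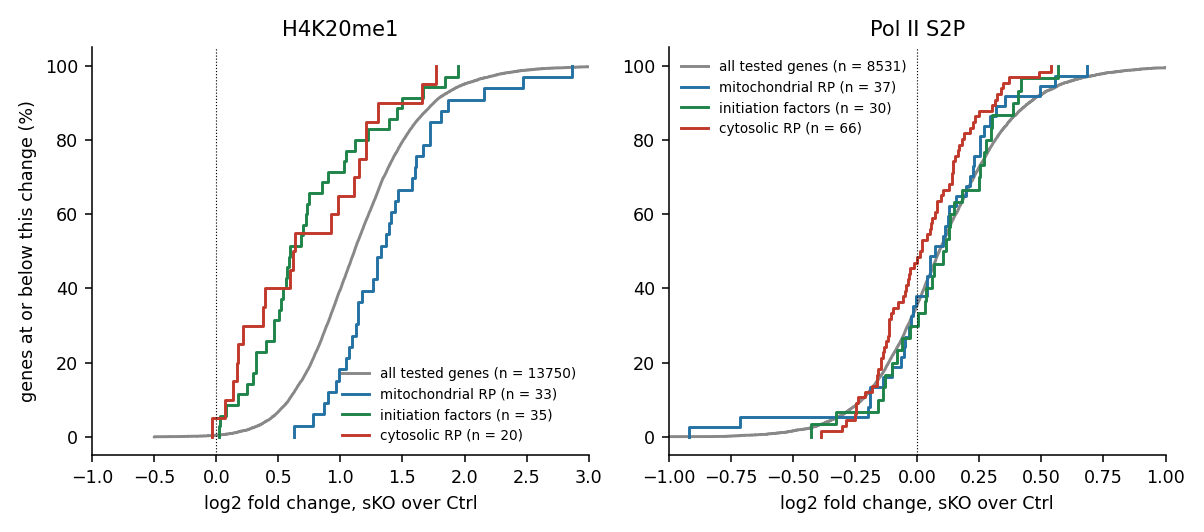
Cumulative share of genes (y, percent) at or below each log2 fold change of sKO over Ctrl (x) for H4K20me1 (left) and Pol II S2P (right); lines are all tested genes, cytosolic and mitochondrial ribosomal protein (RP) genes and initiation factors. In H4K20me1 the median of the 20 cytosolic RP genes is 0.63, that of all genes 1.11 and that of 33 mitochondrial RP genes 1.33; in Pol II S2P the medians of these 4 sets lie between 0.01 and 0.11.

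The highest fold changes were in Rpl17 and Rps14. Rpl17, which lines the exit tunnel of the 60S subunit, scored 167 and 243 in Ctrl. In sKO it scored 618 and 771, a log2 change of 1.77 (SE 0.28, adjusted p = 4.1e-09 by limma). Its peak was centred upstream of the start, with almost none of its length in the gene. Another peak over Rpl17, listed with Dym, scored 405 and 492 in Ctrl and 1043 and 1129 in sKO. Rps14, a 40S gene, scored 461 and 546 in Ctrl and 1536 and 1639 in sKO, with 1.66 (SE 0.27, adjusted p = 6.7e-09). Its annotated span is 31449 bases, so its annotated start may not be that of the main transcript. A peak of 22400 bases inside this span accounted for most of the rise, with 243 and 295 in Ctrl and 1167 and 1168 in sKO. The highest-scoring Pol II S2P peak of Rps14, with 169 and 169 in Ctrl and 216 and 117 in sKO, lay at the downstream edge of that peak. Whether the rise lies over the main transcript was not tested. Rpl11, the MDM2-binding partner of Rpl5, followed with a log2 change of 1.3. It had 244 and 250 in Ctrl against 535 and 694 in sKO. Both of its sKO libraries were above both Ctrl libraries, as in every called member.

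Rpl22l1, the paralog of the 60S gene Rpl22, scored 204 and 317 in Ctrl and 601 and 575 in sKO (log2 fold change 1.21). Rps13, a 40S protein of early assembly, scored 515 and 551 in Ctrl and 1047 and 1267 in sKO (1.11). Its peak of 22200 bases lay almost wholly past the gene end, as did those of Rpl37a and Rps29. The remaining called genes were Rps23rg1 (1.20), Rpl37a (1.15), Rps29 (0.98), Rps28 (0.93), Rps15a (0.63), Rps19 (0.62) and Rplp0 (0.59). The last 3 had peaks of 5800 to 50400 bases and fold changes just past the limit. Rplp0 scored 290 and 376 in Ctrl and 490 and 506 in sKO, and Rps19 scored 163 and 242 in Ctrl and 277 and 338 in sKO. Rps15a, Rps19 and Rplp0 lost their call without Ctrl replicate 1 and without either sKO library. Rpl37a, Rps13, Rps28 and Rps29 lost theirs without sKO replicate 2.

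The other 8 members did not pass the test. Rpl7l1, a paralog of Rpl7, was the only one with a negative value (-0.03, SE 0.52), with 48 and 99 in Ctrl and 76 and 60 in sKO. Rpl19, at the exit side of the 60S subunit, scored 93 and 143 in Ctrl and 112 and 131 in sKO (0.07). Rpl15, a 60S gene, scored 210 and 351 in Ctrl and 293 and 304 in sKO (0.14). In these 3 genes and in Rps24 and Rps19bp1 the genotypes overlapped. Rpl3 scored 202 and 218 in Ctrl and 226 and 246 in sKO (0.17, SE 0.32), and Rpsa scored 398 and 382 in Ctrl and 510 and 505 in sKO (0.38, SE 0.27). In Rpl3, Rpsa and Rpl6 both sKO libraries were above both Ctrl libraries, as in 96.5% of all tested genes (0.0364% had both below), but the change was too small to be called.

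**Figure D5:**
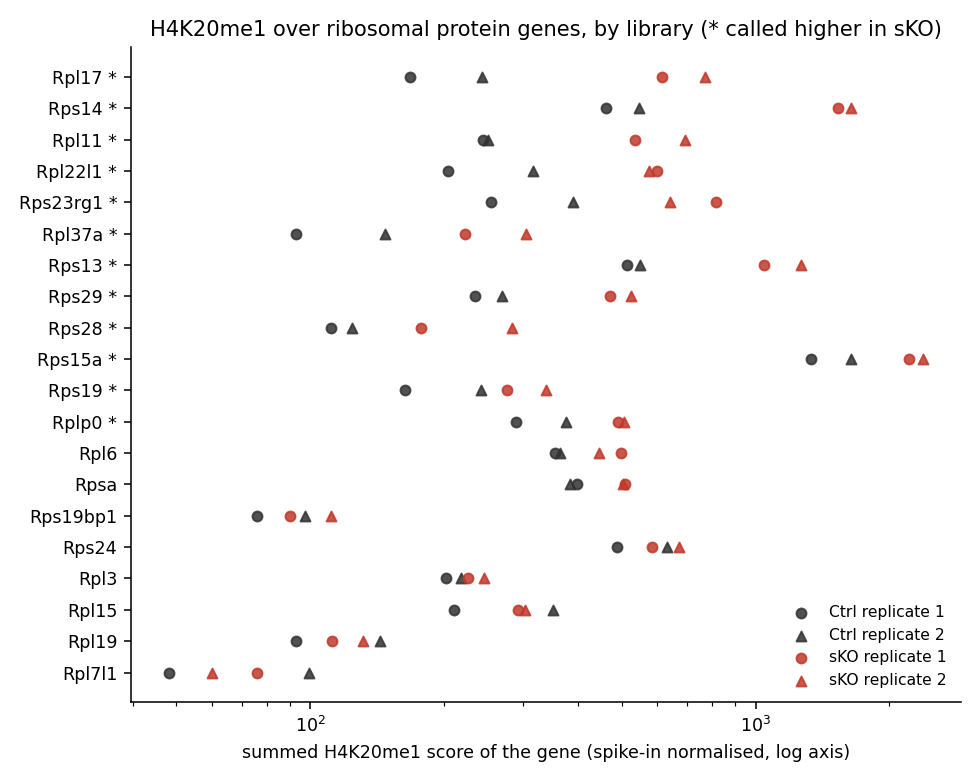
Summed H4K20me1 score (x, log axis) of each of the 20 listed ribosomal protein genes (y, in order of fold change) in the 2 Ctrl and 2 sKO libraries; points are single libraries and an asterisk marks genes called higher in sKO. Ctrl and sKO points separate in the 12 called genes and mix in Rpl7l1, Rpl19, Rpl15, Rps24 and Rps19bp1.

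The uncalled members had dense H4K20me1 already in Ctrl. Per kb of peak, the Ctrl mean of their 8 peaks ranged from 30.9 to 45.4, above the upper quartile of all autosomal peaks (26.8, median 22.4). The 16 peaks of the called members ranged from 12.01 to 34.9 in Ctrl with a median of 23.6. In sKO the peaks of uncalled members ranged from 30.9 to 46.7 and those of called members from 38.3 to 54.3, while all autosomal peaks had a median of 49.0. The Ctrl level enters both the density and the fold change, so this is a description and no separate result. By subunit, 3 of 7 tested 60S genes were called (median 0.39) and 6 of 8 tested 40S genes (median 0.78), both below the 92.3% of all tested genes, and the difference between subunits was not tested.

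Peaks that lay over an annotated member but were listed with another gene or none gave a check that does not use the listing. There were 31 such peaks, with a median log2 ratio of sKO to Ctrl means of 0.82 (quartiles 0.66 and 1.20), beside 0.90 for the 24 peaks listed with members and 1.13 for all 41008 autosomal peaks. In all 31 both sKO libraries were above both Ctrl libraries, against 19 of the 24 peaks listed with members (79.2%) and 93.8% of autosomal peaks. The 31 peaks were longer, with a median of 14400 bases against 7300 for the 24. When only peaks with at least 50% of their length in the gene were used, 6 members could be tested. Of these 4 were called, and their median of 1.07 was 0.04 below that of all genes, so in this subset the smaller rise was not seen.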

How the data were processed

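The members and lists were chosen with earlier results of these data known. Per the submitters' processing notes, the authors used STAR 2.7.3a, MACS2 2.1.1, SICER 0.0.41, Trimmomatic 0.39, FastQC 0.11.8 and Picard 2.21.7 on mm10 (GRCm38), and kept unique alignments without duplicates. The authors deposited a score, a whole-number coverage per union peak that was normalised to spike-in from Drosophila S2 cells and is not divided by peak length. No peak is listed with more than 1 gene. The deposited fraction of the peak inside that gene, made by the authors, was used to select peaks. The 2 IgG libraries were not analysed here.

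Scores were summed by gene identifier. The genotypes were compared with limma 3.58.1 (R 4.3.3; eBayes with a trend) on log2(score + 1) over autosomal genes with a mean score above 50, 2 libraries per group; this scale understates changes of low genes. On simulated scores with a variance of 4 times the mean, the test recovered 97 of 100 genes changed by 1 on the log2 scale for H4K20me1 (13741 genes) and 80 of 100 for Pol II S2P (8523 genes), with 2 and 15 false calls. In that simulation libraries shared 1 scale and 200 genes were changed, higher or lower. The libraries of neither antibody share 1 scale. For H4K20me1 the median over all tested genes, relative to the Ctrl mean, was -0.20 and 0.20 in Ctrl and 1.05 and 1.17 in sKO. In the real H4K20me1 scores 92.3% of tested genes were called higher, so the simulated recoveries and false calls do not describe that test. Named genes were, per antibody, the 4 highest and 4 lowest fold changes, the 4 highest and 4 lowest Ctrl levels per kb, any gene called against the median direction (there was none) and a fixed roster; a few results of single genes are not reported here. Genes named for their scores past the end, and the windows there, were chosen after values were seen. Gene ends and overlaps came from GENCODE M21; Rps23rg1 is not among its members by the rule, and Rps3a is there Rps3a1. No spike-in read numbers entered these comparisons, and the scale between libraries could not be checked.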

Additional observations from a re-analysis of the deposited data

Results flagged for a closer look

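Ribosomal protein genes on chromosome X were outside the comparisons. Their signal is listed because it was present in data the comparisons do not use. Rps4x had an H4K20me1 peak with a Ctrl mean of 926 and an sKO mean of 1129. In Pol II S2P the Ctrl means were 403.5 for Rpl10, 111.5 for Rpl39, 27.5 for Rpl36a and 15 for Rps4x, and the sKO means were 387.5, 117, 48 and 19.5.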

How the results depend on the processing

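H4K20me1 depends on the scale between libraries. Scaled to equal totals, 10 ribosomal protein genes were called (2 higher, 8 lower) with a median of -0.35; after quantile normalisation 11 (1 higher, 10 lower) with -0.59. The median relative to all genes kept its sign: -0.59 after quantile normalisation and -0.53 without peaks over 2 or more protein-coding genes. With only peaks at least 50% inside the gene, 4 of 6 were called, and the median was 1.07, or -0.038 relative to all genes. Without 1 library, 5 (without sKO replicate 2) to 13 were called, with medians of 0.45 to 0.85, or -0.48 to -0.44 relative to all genes. On equal totals the sign turned in Rpl15 (-0.84), Rpl19 (-0.90), Rpl3 (-0.81), Rpl6 (-0.59), Rplp0 (-0.39), Rps15a (-0.35), Rps19 (-0.36), Rps19bp1 (-0.76), Rps24 (-0.80), Rps28 (-0.050) and Rpsa (-0.60). After quantile normalisation it turned in these, to -1.17, -1.40, -1.18, -0.87, -0.67, -0.36, -0.71, -1.28, -1.02, -0.50 and -0.87, and in Rpl22l1 (-0.064), Rpl37a (-0.23), Rps13 (-0.051), Rps23rg1 (-0.034) and Rps29 (-0.30). Without 1 library the sign turned in Rpl15 (-0.23 to 0.51), Rpl19 (-0.24 to 0.38), Rpl7l1 (-0.55 to 0.48) and Rps24 (-0.010 to 0.36), and for Pol II S2P in Rpl10a (-0.65 to 0.038), Rpl37a (-0.61 to 0.042) and Rps7 (-0.079 to 0.77).

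The H4K20me1 level of members relative to other genes in Ctrl, 1.04 per kb of gene (0.94 and 1.15 in single libraries), was 0.23 per kb of listed peaks, -1.38 without division by length, -0.51 with peaks at least 50% inside the gene and 1.26 for canonical ribosomal proteins only. That of Pol II S2P, 2.88 (2.73 and 3.04), was 0.18 per kb of listed peaks and -0.015 without division. The share of Pol II S2P score near the start was 27.6% with a window of 1000 bases and 24.0% to 24.9% without 1 library. Pol II S2P called 1 member on equal totals and 0 in every fit without 1 library. Its median was -0.22 to 0.27, and -0.20 to 0.067 relative to all genes, without 1 library. Replicate numbers only name the libraries (correlation of same-number deviations 0.041 in H4K20me1, -0.043 in Pol II S2P), and with a replicate block 12 and 0 members were called. Adding peaks listed with no gene within 3 kb past the end, chosen after seeing the data, gave 13 called of 21 in H4K20me1 and 0 of 73 in Pol II S2P. A pseudocount of 10 and no filter turned no sign and no call of a named gene. The cause of these shifts was not tested.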
